A study of Mus musculus with 6 samples.

Results

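The 36 genes described here encode the enzymes, transporters and regulators of hepatic glycolysis, gluconeogenesis, glycogen turnover and fructose use. They were taken by gene symbol from the 45777 genes of the expression table, and all 36 were among the 18636 genes that passed the filter on low counts (more than 1 zero count among the 6 mice excluded a gene). Liver RNA came from 3 WT mice, which were *Pak4* flox/flox littermates, and from 3 mice with a liver deletion (LKO, Alb-Cre with *Pak4* flox/flox). All were C57BL/6 males aged 8 weeks and fasted for 24 h. Every mouse therefore carried the floxed *Pak4* allele, and in LKO mice Cre made from the albumin promoter acts in hepatocytes, while the other liver cells keep the gene. The libraries, 1 per mouse, were whole-liver libraries, in which fewer cells of a type and less RNA per cell cannot be told apart.

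In glycolysis, glucose is phosphorylated, split into trioses and oxidized to pyruvate, and gluconeogenesis runs the same path backwards except at 3 sites, where different enzymes work in each direction. These are hexokinases against glucose-6-phosphatase, phosphofructokinase against fructose-1,6-bisphosphatase, and pyruvate kinase against pyruvate carboxylase with phosphoenolpyruvate carboxykinase. During a fast the liver first breaks down its glycogen and then makes glucose from lactate, glycerol and amino acids, so that the direction-specific enzymes are regulated by insulin, glucagon and the glucose supply, many of them through transcription.

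Between 45934632 and 59576437 reads were counted per mouse. *Pak4*, the deleted gene, had 268, 210 and 271 reads in WT livers against 85, 52 and 149 in LKO livers, and its log2 fold change, −0.71 ± 0.31 (SE), did not pass the test across all genes (adjusted p = 0.101). All adjusted p below are from the quasi-likelihood test of edgeR, corrected by the Benjamini-Hochberg method over all genes tested, unless another tool is named. After TMM scaling, the *Pak4* value of LKO mouse 3, 3.22 CPM, lay above the lowest WT value of 3.21 CPM. CPM are TMM-scaled read counts. They compare 1 gene between mice, whereas TPM, which are divided by gene length, are used here to compare genes within a mouse. In TPM, *Pak4* was at 2.41, 2.31 and 2.59 in WT mice and at 0.46, 0.27 and 0.84 in LKO mice, without overlap. With total counts in place of TMM its log2 fold change was −1.54 (adjusted p = 0.0056). Relative to the median of all genes tested, it was −0.67 with TMM and −0.64 with total counts. These scalings differ only by a factor per mouse, so the values are nearly alike by construction. Of 9 hepatocyte markers, 5 were called higher and 1 lower in LKO mice, and their summed level was 47100 to 49600 CPM in WT and 123000 to 141000 CPM in LKO mice, but 35900 to 40000 against 34400 to 43400 on the TPM scale. Of 10 macrophage markers 4 were called higher (378 to 546 against 563 to 1070 CPM), of 8 sinusoidal endothelial markers 5 (404 to 445 against 681 to 699 CPM), of 9 stellate and fibroblast markers 3 with 1 lower (306 to 361 against 612 to 875 CPM), of 5 neutrophil markers 3 (0.979 to 6.50 against 13.3 to 27.8 CPM) and of 5 erythroid markers 2 with 1 lower (192 to 324 against 879 to 1630 CPM). On the TPM scale the macrophage and endothelial sums were instead lower in LKO mice, at 392 to 642 against 230 to 346 TPM and at 178 to 227 against 112 to 164 TPM. The stellate and fibroblast sums (164 to 216 against 176 to 237 TPM) and the neutrophil sums (3.73 to 26.9 against 20.4 to 40.1 TPM) overlapped. The erythroid sums stayed higher (528 to 928 against 1010 to 1970 TPM). Of 7 lymphocyte markers 1 was called lower (4.51 to 5.87 against 2.61 to 4.82 CPM, and 6.89 to 10.6 against 0.989 to 2.36 TPM). Their part in the results below was not tested. Bile duct markers, of which 1 of the 4 tested was called lower, summed to 41.0 to 67.4 TPM in WT and 6.93 to 10.9 TPM in LKO mice (32.9 to 50.1 against 13.4 to 29.9 CPM), and fat markers to 2.60 to 5.80 against 0.125 to 0.564 TPM. The part of these lists was not tested either. Muscle markers summed to at most 0.623 TPM and pancreas markers to at most 14.1 TPM in any mouse, and *Acta1*, *Plin1*, *Lep*, *Cpa1* and *Pnlip* had no read.

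More of the 36 genes were lower than higher in LKO mice. At an adjusted p under 0.05, 22 of them (61.1%) were called, against 40.1% of all genes tested. The 15 genes called lower made up 41.7% of the 36, against 20.5% of all genes tested, and the 7 called higher made up 19.4%, against 19.6%. Their median log2 fold change was −0.38, against −0.04 for all genes tested, and values of WT and LKO mice did not overlap for 26 of the 36 (72.2%), against 54.0% of all genes. The 15 that fell were *Slc2a2*, *Gckr*, *Pfkl*, *Pfkm*, *Pklr*, *Gpi1*, *Aldoa*, *Gapdh*, *Pgam1*, *Eno1*, *G6pc3*, *Gbe1*, *Pygl*, *Ppp1r3b* and *Khk*.

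The direction of the genes called higher depended on the scaling. Dividing by total counts alone moved the median log2 fold change of all genes tested to −0.90, and 3 of the 36 genes were then called higher (6.26% of all genes) and 23 lower (51.4%, or 57.6% in either direction). With limma on log2(TPM + 1) the median was −0.79, 0 of the 36 were called higher (also 0 at an unadjusted p under 0.05, 2.43% of all genes at the adjusted threshold) and 29 lower (71.5%, or 73.9% in either direction). Relative to the median gene of each scaling, all 36 genes stayed on the same side with total counts. Total counts and TMM differ only by a factor per mouse, so this agreement was nearly fixed beforehand and tests nothing about the genes. With log2(TPM + 1) 29 stayed on the same side, the others being *Hk1*, *Pfkfb1*, *Pfkfb2*, *Pgk1*, *Pcx*, *Pck1* and *Ppp1r3c*. The added 1 makes the fold changes of genes with low TPM smaller, such as *Hk1* (1.05 TPM in WT and 0.279 TPM in LKO mice), and so also moves the median. The part of the added 1 in these changes of side was not tested. "Rose" and "fell" below refer to TMM scaling, which holds the bulk of the genes level.

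**Figure D1:**
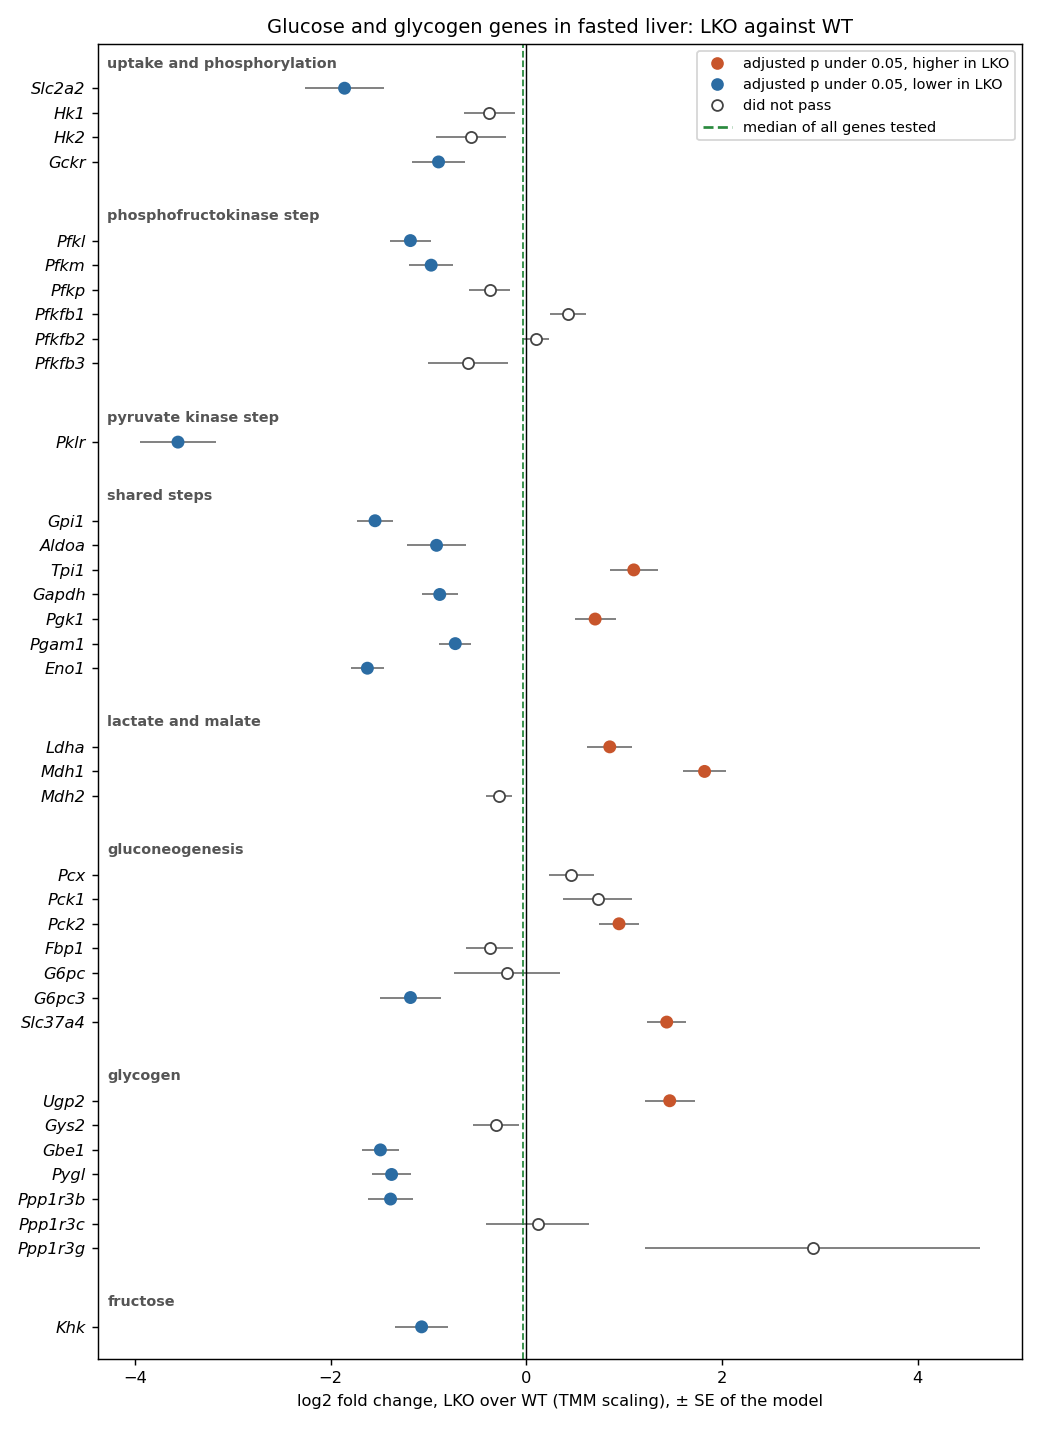
Log2 fold change of LKO over WT for each of the 36 genes (x axis, TMM scaling, with the standard error of the model), grouped by role. Filled points passed an adjusted p of 0.05 (7 higher, 15 lower), open points did not, and the dashed line is the median of all genes tested, −0.04. *Pklr* has the lowest value, −3.56, and the highest value, 2.93 for *Ppp1r3g*, has a standard error of 1.71.

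Among the genes of glucose entry, *Slc2a2*, which encodes the hepatocyte glucose transporter GLUT2, was at 356, 330 and 435 CPM in WT mice 1, 2 and 3 and at 149, 117 and 43.0 CPM in LKO mice 1, 2 and 3. It fell by 1.86 ± 0.40 on the log2 scale (SE, adjusted p = 0.00711), or 3.63-fold between the group means, with no overlap and with LKO mouse 3 lowest. *Gckr*, a nuclear inhibitor of hepatic glucose phosphorylation, was at 93.0, 72.1 and 81.1 CPM against 63.4, 39.8 and 28.9 CPM. Its log2 fold change was −0.90 ± 0.27 (adjusted p = 0.0289), a call that was lost without WT mouse 1, WT mouse 3 or LKO mouse 2 (adjusted p = 0.0971, 0.0740 and 0.0996). Of the hexokinases with high glucose affinity, *Hk1* and *Hk2* are among the genes described here. They were at most at 1.81 TPM in any mouse, and neither passed the test. *Hk3*, which is not among them, was called lower, at 7.48 ± 0.567 against 1.87 ± 0.0894 CPM (WT against LKO, SD, n = 3, adjusted p = 0.000307). *Hk1* was at 2.21 ± 0.368 against 1.70 ± 0.235 CPM (WT against LKO, SD, n = 3, adjusted p = 0.276), and *Hk2* at 4.14 ± 0.948 against 2.79 ± 1.24 CPM (adjusted p = 0.238).

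At the phosphofructokinase step, the first committed step of glycolysis, the liver and muscle subunits fell and the platelet subunit did not pass the test. *Pfkl*, the liver subunit, was at 24.7, 15.2 and 17.8 CPM in WT mice against 9.25, 7.54 and 8.54 CPM, a log2 fold change of −1.19 ± 0.21 (adjusted p = 0.00282). *Pfkm* was at 10.1, 7.69 and 10.8 against 6.02, 3.87 and 4.61 CPM, a log2 fold change of −0.97 ± 0.23 (adjusted p = 0.00974), and the groups overlapped for neither gene. *Pfkp* differed by −0.38 ± 0.21 on the log2 scale (adjusted p = 0.183), although its values did not overlap between the groups. Per length, *Pfkl* made up 54.8% ± 5.11 of the summed TPM of the 3 subunits in WT livers, against 48.9% ± 4.38 in LKO livers (SD, n = 3, exact two-sided permutation test, p = 0.2). For 3 against 3 mice this test cannot give a p under 0.1, and the shares overlapped between the groups.

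The bifunctional enzymes encoded by *Pfkfb1*, *Pfkfb2* and *Pfkfb3* make and remove fructose 2,6-bisphosphate, the activator of phosphofructokinase and inhibitor of fructose-1,6-bisphosphatase. None of the 3 passed the test. *Pfkfb1*, the liver form, was at 35.8, 31.6 and 26.8 CPM in WT mice and 38.6, 36.4 and 51.8 CPM in LKO mice (log2 fold change 0.43 ± 0.18, adjusted p = 0.0970), but with total counts the sign turned to −0.43 and with TPM to −1.10. *Pfkfb2* was at 52.7 to 58.4 CPM in WT and 55.5 to 65.2 CPM in LKO mice (adjusted p = 0.609). *Pfkfb3* was at 11.02, 18.9 and 16.4 CPM in WT mice and 4.20, 11.5 and 14.9 CPM in LKO mice (adjusted p = 0.282).

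*Pklr*, which encodes the liver and red-cell pyruvate kinase, had the lowest fold change of the 36 genes. It was at 100, 49.5 and 92.9 CPM in WT mice and 9.43, 7.28 and 3.85 CPM in LKO mice, 11.8-fold lower between the group means, and fell by 3.56 ± 0.39 on the log2 scale (adjusted p = 0.000427). All LKO values lay below the lowest WT value, and the log2 fold change stayed between −3.87 and −3.27 when any 1 mouse was left out. With total counts it was −4.41 and with TPM −4.45. The gene, Entrez 18770, lies on chromosome 3 from 89136122 to 89146815 of GRCm38.p6 (mm10) on the plus strand. RefSeq gives it an upstream start, used in red cells, and a downstream start, used in liver, and reads were counted for the gene as a whole, so that the starts cannot be told apart here. The 250 bases before the downstream start (chr3:89136373-89136622, plus strand) are printed as those of the called gene with the largest fall. Capitals mark CACG and CGTG spaced 9 bases apart, a pair of incomplete E-boxes as bound by the glucose-responsive factor ChREBP, and TATAAA.

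*Pklr* downstream start: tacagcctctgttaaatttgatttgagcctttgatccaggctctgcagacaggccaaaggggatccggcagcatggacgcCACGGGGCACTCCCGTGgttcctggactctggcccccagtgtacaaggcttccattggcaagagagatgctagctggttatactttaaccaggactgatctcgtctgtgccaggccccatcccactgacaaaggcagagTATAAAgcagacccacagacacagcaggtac

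The spaced pair lies 170 to 154 bases before the start. It was searched for after the window had been read, and it is held by 0.219% of all 32851 promoter windows of this length and by 1 of the 54 windows of the 36 genes.

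The 7 genes of the steps that both directions share were all called, 5 lower (71.4%, against 20.5% of all genes tested) and 2 higher (28.6% against 19.6%), and the split did not follow the order of the pathway. *Eno1* (enolase) was at 345, 259 and 330 CPM in WT mice and at 104, 95.9 and 103 CPM in LKO mice, 3.09-fold lower (log2 fold change −1.63 ± 0.17, adjusted p = 0.000369). *Gpi1* (glucose-6-phosphate isomerase) was at 93.9, 68.5 and 91.7 against 27.9, 25.1 and 34.0 CPM, a log2 fold change of −1.55 ± 0.18 (adjusted p = 0.000579). *Gapdh*, which oxidizes glyceraldehyde 3-phosphate and is often used as a reference gene, was at 117, 170 and 172 against 78.3, 85.9 and 83.8 CPM, a log2 fold change of −0.89 ± 0.18 (adjusted p = 0.00574). For each of these genes every LKO mouse lay below every WT mouse.

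*Pgam1* (phosphoglycerate mutase) fell by 0.73 ± 0.16 on the log2 scale (adjusted p = 0.00839), from 60.04 ± 9.38 to 36.3 ± 3.41 CPM (SD, n = 3). Its processed copies *Pgam1-ps1* and *Pgam1-ps2* held 30.6% to 40.5% of the summed reads of gene and copies in each mouse, so that the level of *Pgam1* itself is uncertain. The copy *Eno1b* held at most 5.15% of such reads for *Eno1*, and named copies of *Ldha*, *Gapdh*, *Pgk1* and *Aldoa* at most 0.134%. *Aldoa* (aldolase A) was at 81.9, 76.2 and 76.9 CPM in WT mice and 31.0, 28.4 and 64.8 CPM in LKO mice (log2 fold change −0.92 ± 0.30, adjusted p = 0.0382). LKO mouse 3 stood close to the WT mice here, and the call was lost without any 1 of the other 5 mice (adjusted p = 0.0812 to 0.120).

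The 2 shared-step genes that rose were *Tpi1* and *Pgk1*. *Tpi1*, whose product interconverts the trioses, was at 226, 166 and 228 CPM in WT mice against 478, 543 and 305 CPM, a log2 fold change of 1.10 ± 0.25 (adjusted p = 0.0087) that shrank to 0.22 with total counts (adjusted p = 0.406) and turned to −0.47 with TPM. *Pgk1*, phosphoglycerate kinase, was at 239, 152 and 195 against 330, 356 and 267 CPM, a log2 fold change of 0.70 ± 0.21 (adjusted p = 0.0278). It turned to −0.17 with total counts and to −0.82 with TPM, where limma called it lower (adjusted p = 0.00434). The call of *Pgk1* was also lost without WT mouse 2 or 3 or LKO mouse 1 or 2 (adjusted p = 0.0651 to 0.104). *Tpi1* and *Gapdh*, which encode successive enzymes and both lie on chromosome 6 between 124810586 and 125166467, moved in opposite directions.

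**Figure D2:**
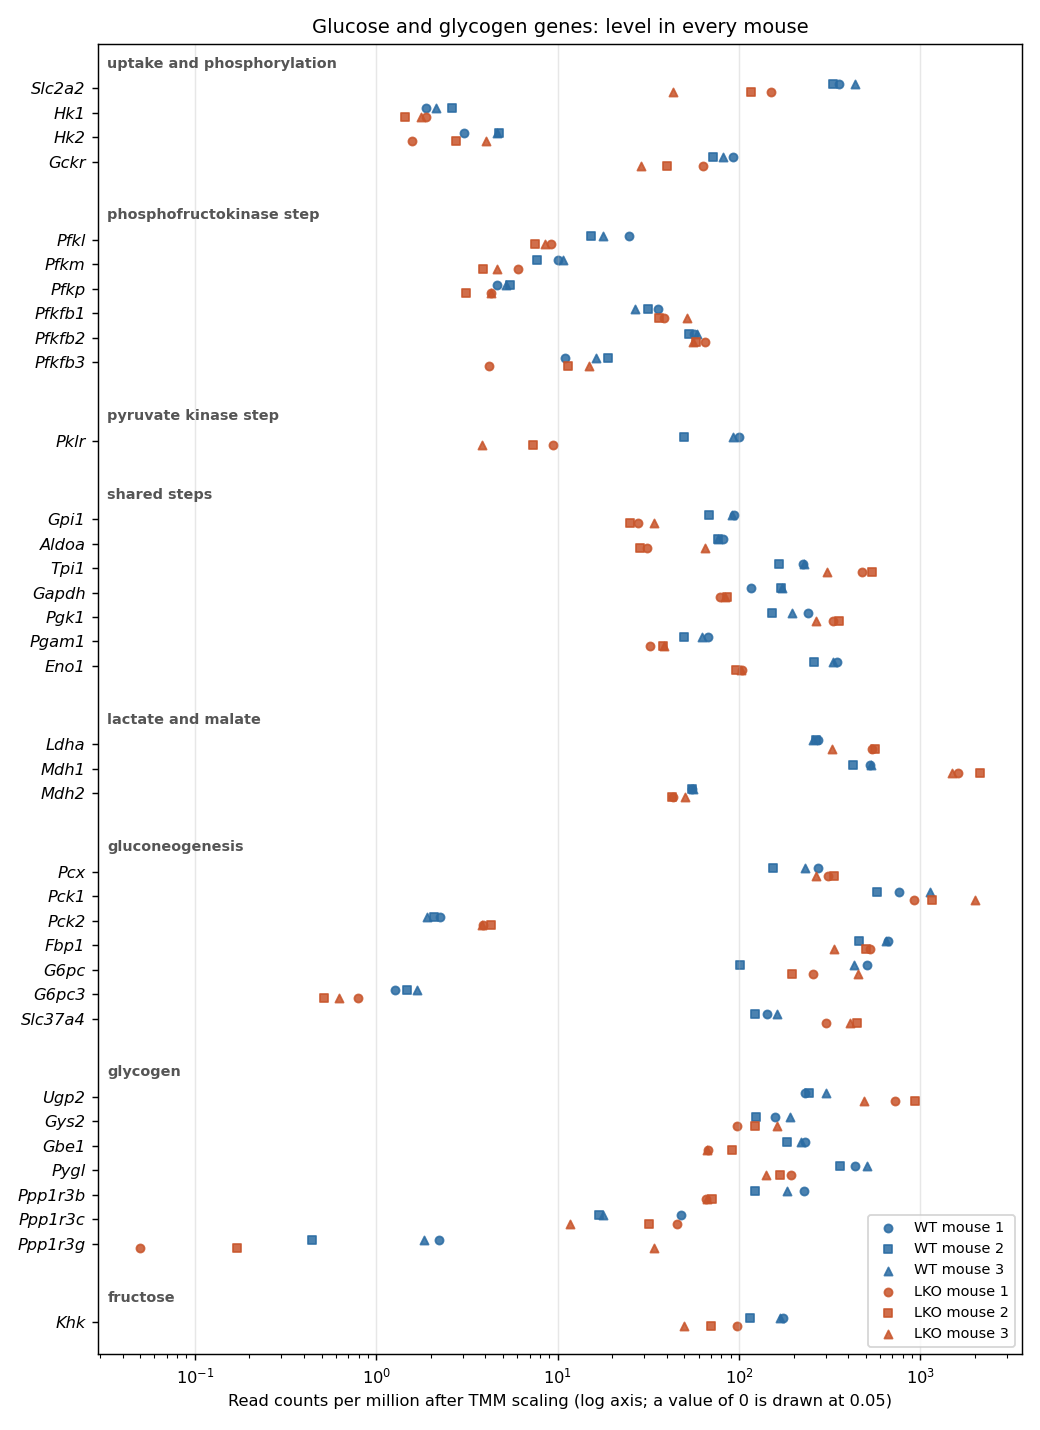
Level of each of the 36 genes in every mouse, as CPM after TMM scaling on a log axis, with WT mice in blue and LKO mice in orange. *Pklr*, *Eno1*, *Gbe1* and *Mdh1* show groups far apart, whereas the groups overlap for *G6pc*, *Pck1* and *Fbp1* and LKO mouse 3 stands alone at 34.1 CPM for *Ppp1r3g*.

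Of the genes that handle lactate and malate, *Mdh1* rose most. It encodes cytosolic malate dehydrogenase, which turns malate exported from mitochondria into oxaloacetate and supplies NADH for gluconeogenesis. *Mdh1* was at 525, 427 and 531 CPM in WT mice and 1601, 2140 and 1493 CPM in LKO mice, 3.53-fold higher (log2 fold change 1.82 ± 0.22, adjusted p = 0.000628), and it remained higher with total counts (0.94, adjusted p = 0.00178), whereas with TPM the difference of 0.26 did not pass (adjusted p = 0.103). In TPM, *Mdh1* ranked 3 of the 36 genes in WT mice (494 ± 33.8, SD, n = 3) and 1 in LKO mice (592 ± 10.1). *Mdh2*, the mitochondrial enzyme, was at 55.2, 55.2 and 55.4 CPM in WT mice and 43.4, 42.8 and 50.4 CPM in LKO mice, and its log2 fold change of −0.28 ± 0.13 did not pass (adjusted p = 0.126). *Ldha*, the lactate dehydrogenase A subunit, was at 271, 265 and 257 CPM against 542, 565 and 324 CPM, a log2 fold change of 0.85 ± 0.23 (adjusted p = 0.0181). It turned to −0.03 with total counts and to −0.73 with TPM, where limma called it lower (adjusted p = 0.0106). The TMM call of *Ldha* was lost without any 1 mouse other than LKO mouse 3 (adjusted p = 0.0517 to 0.0685).

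*Mdh1*, Entrez 17449, lies on the minus strand of chromosome 11 from 21556692 to 21571934, next to *Ugp2*, another gene that rose (21321126 to 21371267), and none of the genes that RefSeq places between them passed the filter on low counts. The 250 bases before its start (chr11:21571935-21572184, read on the minus strand) are printed as those of the called gene with the largest rise at 10 CPM or more. They hold none of the motifs searched, so that no letter is capitalized.

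*Mdh1* start: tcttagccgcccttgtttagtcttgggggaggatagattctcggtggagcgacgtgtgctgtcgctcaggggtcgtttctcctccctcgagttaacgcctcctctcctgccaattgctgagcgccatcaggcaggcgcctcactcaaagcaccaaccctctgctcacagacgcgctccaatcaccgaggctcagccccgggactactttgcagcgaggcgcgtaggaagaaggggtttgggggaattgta

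Of the 7 direction-specific genes of gluconeogenesis, 2 were called higher (28.6%, against 19.6% of all genes tested), 1 was called lower (14.3% against 20.5%) and 4 were not called, so that the share called in either direction (42.9%) was near that of all genes (40.1%). *Pck1*, cytosolic phosphoenolpyruvate carboxykinase and the rate-controlling enzyme of gluconeogenesis from lactate and amino acids, was at 763, 576 and 1126 CPM in WT mice and 925, 1153 and 2006 CPM in LKO mice. The groups overlapped, and the log2 fold change of 0.73 ± 0.35 did not pass (adjusted p = 0.134) and turned to −0.11 with total counts and −0.84 with TPM. *G6pc*, the catalytic subunit of glucose-6-phosphatase, which releases glucose, was at 507, 101 and 433 CPM against 257, 196 and 452 CPM. Its log2 fold change of −0.20 ± 0.54 (adjusted p = 0.791) stands beside a wide spread among the WT mice, where mouse 2 was lowest, and lay between −0.67 and 0.17 when any 1 mouse was left out. *Fbp1* (fructose-1,6-bisphosphatase) was at 665, 458 and 649 against 529, 503 and 333 CPM (log2 fold change −0.38 ± 0.24, adjusted p = 0.247), and *Pcx* (pyruvate carboxylase) at 274, 154 and 231 against 309, 332 and 264 CPM (log2 fold change 0.46 ± 0.23, adjusted p = 0.146), which turned to −0.40 with total counts and −1.04 with TPM. *Fbp1* was called lower with total counts (−1.24, adjusted p = 0.00205) and with limma on TPM (−1.93, adjusted p = 0.000231).

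*Slc37a4*, the transporter that carries glucose 6-phosphate into the endoplasmic reticulum, rose from 142, 122 and 163 CPM to 303, 445 and 407 CPM (log2 fold change 1.43 ± 0.20, adjusted p = 0.0011) and remained higher with total counts (0.56, adjusted p = 0.0183), although with TPM the value was −0.13. The mitochondrial isozyme *Pck2* was called higher, at 2.08 ± 0.168 against 4.01 ± 0.251 CPM (WT against LKO, SD, n = 3, log2 fold change 0.95 ± 0.21, adjusted p = 0.00756). The difference was 0.07 with total counts (adjusted p = 0.815) and −0.30 with TPM, where limma called *Pck2* lower (adjusted p = 0.0450). *G6pc3*, the widely expressed glucose-6-phosphatase, fell from 1.48 ± 0.202 to 0.646 ± 0.141 CPM (log2 fold change −1.18 ± 0.31, adjusted p = 0.0158), a call lost without WT mouse 3 or LKO mouse 2 (adjusted p = 0.0602 and 0.0506). Both isozymes were minor: *Pck1* made up 99.7% to 99.9% of the TPM of the *Pck* pair in every mouse, and *G6pc* 97.9% to 99.8% of that of the *G6pc* pair.

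The promoters of *Pck1* and *G6pc*, the genes most used as readouts of gluconeogenic transcription, are shown over the 250 bases before their starts, which lie on the plus strand at chr2:173152823-173153072 and chr11:101367466-101367715. Capitals mark TGACG or its complement CGTCA (the core of a cAMP response element), AGGTCA or TGACCT (a single nuclear receptor repeat) and TATAAA.

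*Pck1* start: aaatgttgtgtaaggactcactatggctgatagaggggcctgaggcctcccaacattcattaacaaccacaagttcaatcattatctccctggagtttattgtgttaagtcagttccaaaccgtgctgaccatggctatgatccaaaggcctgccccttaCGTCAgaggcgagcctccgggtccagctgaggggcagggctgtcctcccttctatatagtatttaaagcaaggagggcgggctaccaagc
*G6pc* start: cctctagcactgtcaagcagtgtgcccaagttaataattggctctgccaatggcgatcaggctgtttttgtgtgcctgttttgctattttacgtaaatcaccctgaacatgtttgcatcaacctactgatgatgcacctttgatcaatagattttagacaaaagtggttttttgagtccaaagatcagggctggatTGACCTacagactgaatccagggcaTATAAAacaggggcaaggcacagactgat

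The *Pck1* window held CGTCA 90 to 86 bases before the start, and the *G6pc* window held TGACCT 54 to 49 and TATAAA 29 to 24 bases before it. The 34 genes with a RefSeq window had 54 windows (*Gys2* and *Ppp1r3b* had none). TGACG was found on either strand in 13 of the 54 (24.1%, against 17.8% of all windows), the E-box CACGTG in 8 (14.8% against 6.02%), AGGTCA in 10 (18.5% against 14.02%), TATAAA in 4 (7.41% against 12.4%) and the forkhead motif GTAAACA in 0 (3.17% of all windows). In the printed windows no motif overlapped another. A match of these letters is a description of the window and not a binding site.

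**Figure D3:**
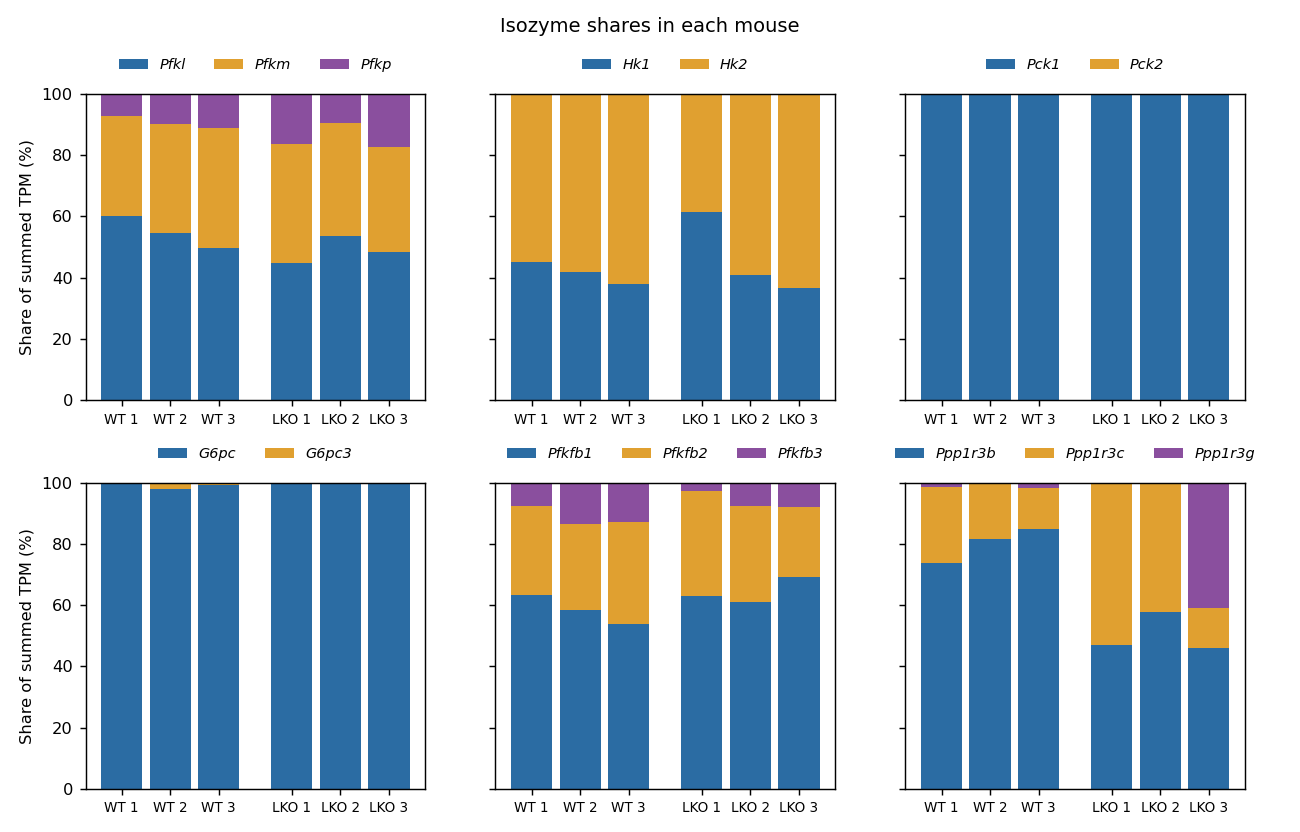
Share of the summed TPM (y axis, percent, from 0 to 100) that each isozyme or subunit made up in each of the 6 mice. *Pck1* and *G6pc* fill nearly the whole bar in all mice, and the *Ppp1r3b* share is lower in each LKO mouse (46.1% to 57.9%) than in any WT mouse (at least 73.8%).

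Of the 7 glycogen genes, 3 fell (42.9%, against 20.5% of all genes tested), 1 rose with TMM (14.3% against 19.6%) and 3 were not called, and those that fell belong to synthesis as well as breakdown. *Gbe1*, the branching enzyme, was at 230, 184 and 220 CPM in WT mice and 67.4, 91.6 and 66.3 CPM in LKO mice, 2.81-fold lower (log2 fold change −1.49 ± 0.19, adjusted p = 0.000648). *Pygl*, liver glycogen phosphorylase, was at 436, 362 and 508 against 193, 169 and 141 CPM, 2.60-fold lower (log2 fold change −1.38 ± 0.20, adjusted p = 0.0012). *Ppp1r3b*, which targets protein phosphatase 1 to glycogen and thereby activates glycogen synthase, was at 228, 122 and 183 against 65.8, 70.9 and 67.0 CPM, 2.62-fold lower (log2 fold change −1.39 ± 0.23, adjusted p = 0.00199). None of these genes showed overlap between WT and LKO mice.

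*Ugp2*, which makes the UDP-glucose that glycogen synthase uses, rose from 231, 244 and 301 CPM to 719, 932 and 490 CPM (log2 fold change 1.46 ± 0.26, adjusted p = 0.00282) and was also higher with total counts (0.58, adjusted p = 0.0424), although with TPM the value was −0.13. *Gys2*, liver glycogen synthase, was at 158, 124 and 191 CPM against 97.1, 123 and 161 CPM, and its log2 fold change of −0.31 ± 0.23 did not pass (adjusted p = 0.323). It was called lower with total counts (−1.17, adjusted p = 0.00263) and with limma on TPM (−1.83, adjusted p = 0.000567). *Ppp1r3c*, another glycogen-targeting subunit, was at 47.6, 16.8 and 17.9 CPM against 45.4, 32.1 and 11.7 CPM (log2 fold change 0.11 ± 0.53, adjusted p = 0.880), with a wider spread inside each group than between the groups and a sign that turned to −0.74 with total counts and −1.32 with TPM.

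The values of *Ppp1r3g*, a glycogen-targeting subunit known for its rise in fasted liver, came from 1 mouse. It had 166, 29 and 121 reads in WT mice but 0, 6 and 1575 reads in LKO mice, which is 2.23, 0.443 and 1.83 CPM against 0, 0.172 and 34.1 CPM. The log2 fold change of 2.93 ± 1.71 did not pass (adjusted p = 0.209), and without LKO mouse 3 it was −4.22 and was called (adjusted p = 0.0221). In LKO mouse 3 *Ppp1r3g* made up 41.0% of the TPM of the 3 targeting subunits, against at most 1.59% in any other mouse. The share of *Ppp1r3b* lay below all WT values in each LKO mouse, 80.1% ± 5.70 against 50.4% ± 6.57 (SD, n = 3, exact two-sided permutation test, p = 0.1, the smallest that 3 against 3 mice allow), whereas no other share among the 6 isozyme groups was free of overlap. These were 15 shares in 6 groups, and none could pass a threshold of 0.05.

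*Khk* (ketohexokinase), which commits fructose to hepatic metabolism, was at 176, 115 and 168 CPM in WT mice and 97.9, 70.5 and 49.7 CPM in LKO mice. It fell by 1.07 ± 0.27 on the log2 scale (adjusted p = 0.0140), with no overlap, and the call was lost by a small margin without WT mouse 1 or 3 or LKO mouse 2 (adjusted p = 0.0519 to 0.0536).

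Gluconeogenic genes were also set against glycolytic genes (*Pklr* and *Pfkl*), against *Gapdh*, which both directions use, and *Gys2* against *Pygl*, as the log2 ratio of their TPM within each mouse, which does not depend on the scaling between mice. *Pck1* over *Pklr* was at 2.97, 3.60 and 3.64 in WT mice and at 6.65, 7.36 and 9.13 in LKO mice, a difference of 4.31 between the means. *Pck1* over *Gapdh* was at 1.83, 0.89 and 1.83 against 2.70, 2.87 and 3.71, and *Fbp1* over *Pfkl* at 6.13, 6.25 and 6.51 against 7.22, 7.46 and 6.62. In each of these ratios all LKO mice lay above all WT mice, as in 8 of the 10 ratios computed. With TMM, none of the numerators of the 10 ratios (*Pck1*, *G6pc*, *Fbp1* and *Gys2*) was called. All denominators of these ratios (*Pklr*, *Pfkl*, *Gapdh* and *Pygl*) were called lower with TMM. With total counts, *Fbp1* (−1.24, adjusted p = 0.00205) and *Gys2* (−1.17, adjusted p = 0.00263) were called lower too, whereas *Pck1* and *G6pc* were not called. *G6pc* over *Gapdh* (−1.40 to 1.47 in WT and 0.53 to 1.79 in LKO mice) and *Fbp1* over *Gapdh* (1.39 to 2.47 and 1.94 to 2.72) overlapped. *Gys2* over *Pygl* was −1.36 ± 0.065 in WT livers, against −0.30 ± 0.604 in LKO livers (SD, n = 3), with LKO mouse 3 highest at 0.33. The ratios over *Gapdh* depend on that choice of a shared gene. Over *Tpi1* and *Pgk1*, the shared genes that rose with TMM, which were tried after the data had been seen, all 6 ratios were lower on average in LKO mice, by −0.01 (*Pck1* over *Pgk1*) to −1.46 (*Fbp1* over *Tpi1*), with no overlap between the groups only for the 2 ratios of *Fbp1*. The ratios share their genes and were not tested.

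**Figure D4:**
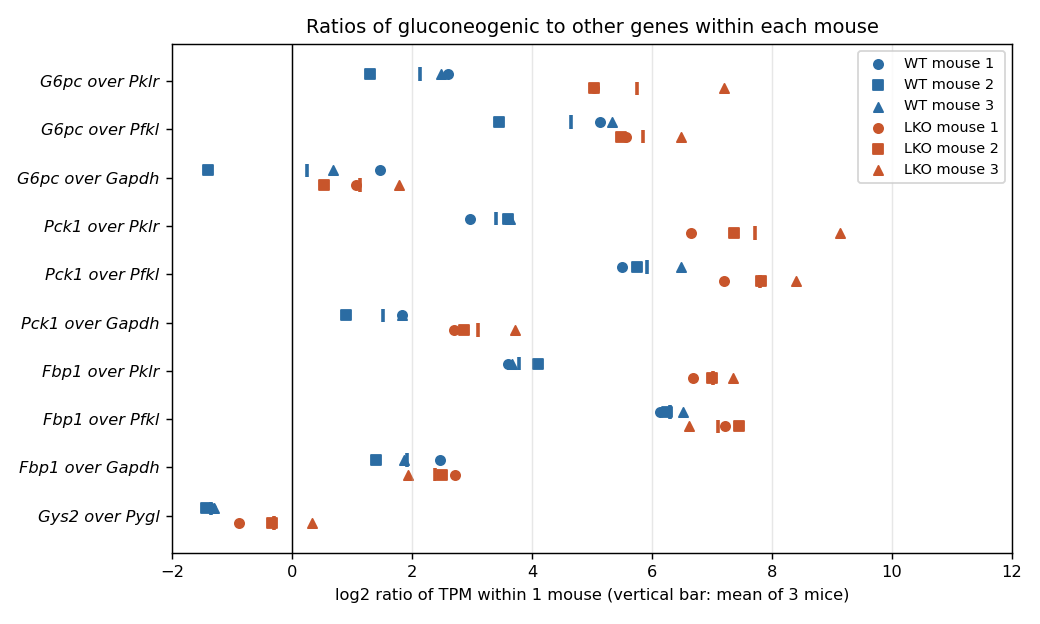
Log2 ratio of TPM of a gluconeogenic gene over a glycolytic or shared gene, and of *Gys2* over *Pygl*, within each mouse (x axis), with the mean of 3 mice as a vertical bar. LKO mice lie above WT mice without overlap in all ratios but *G6pc* over *Gapdh* and *Fbp1* over *Gapdh*.

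The order of the 36 genes by TPM differed between the groups. In WT mice the highest were *Fbp1* (777 ± 117 TPM), *Pck1* (605 ± 169), *Mdh1* (494 ± 33.8), *Eno1* (343 ± 36.4) and *Ldha* (321 ± 25.6, SD, n = 3 each). In LKO mice they were *Mdh1* (592 ± 10.1), *Pck1* (358 ± 191), *Fbp1* (205 ± 49.3), *Ldha* (196 ± 46.4) and *Tpi1* (183 ± 36.8), and *Eno1* (38.8 ± 8.06) was in place 13 and *Slc2a2* in place 16 after place 8 in WT mice. Among the 5 genes named for each group, neighbours overlapped between mice, except that *Mdh1* lay above *Eno1* in WT mice and above *Pck1* in LKO mice.

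**Figure D5:**
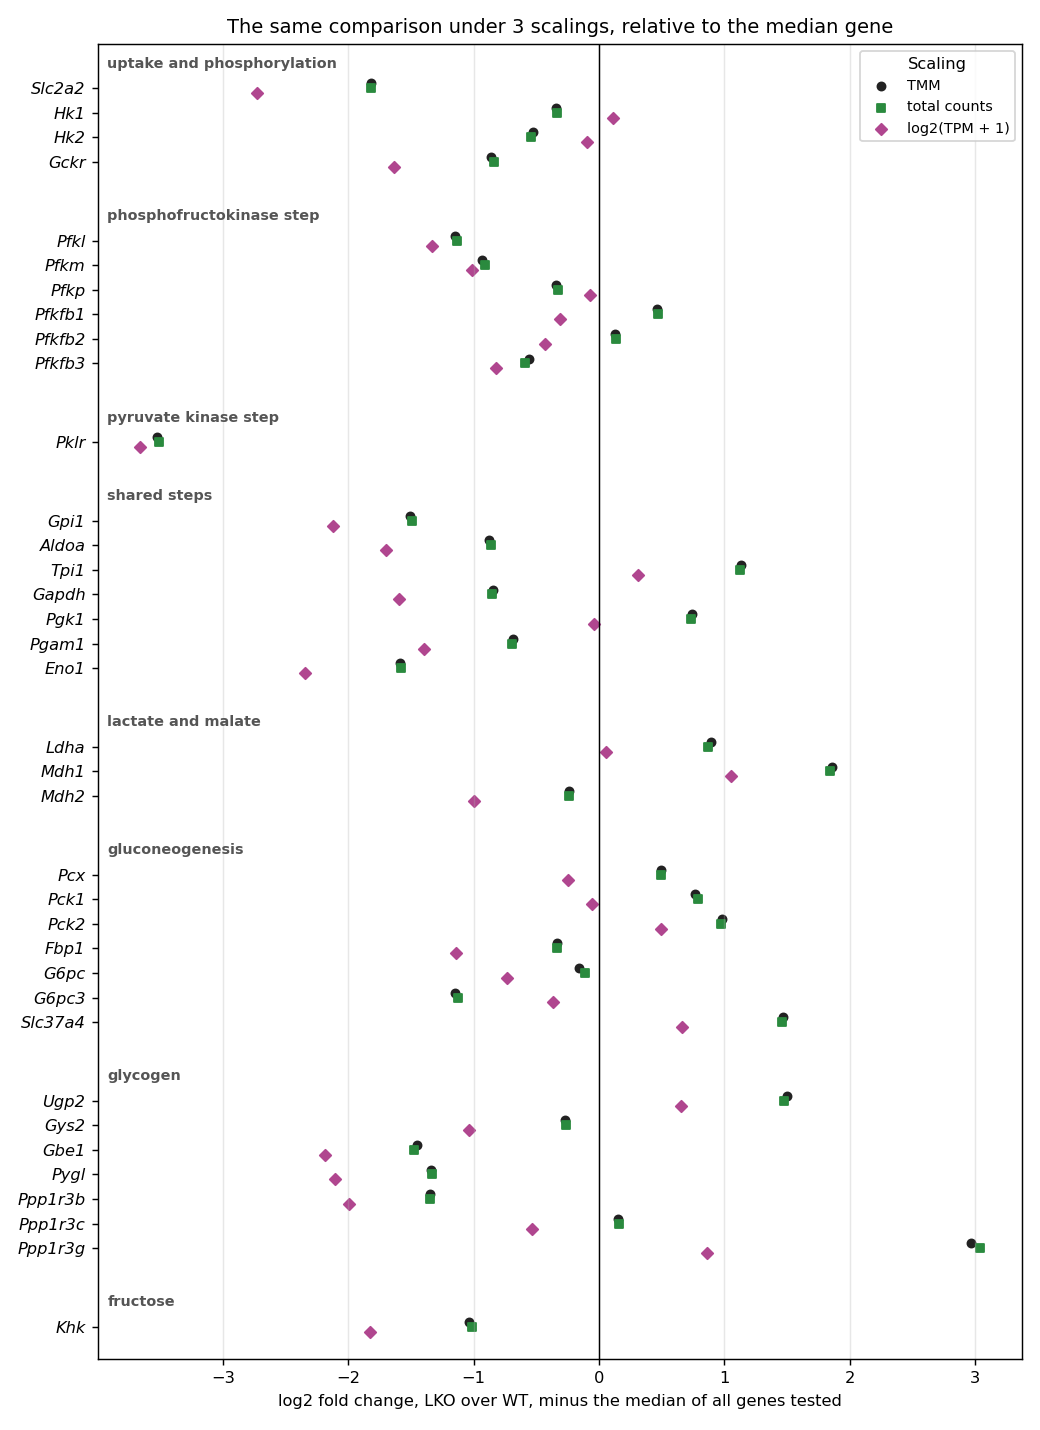
Log2 fold change of LKO over WT minus the median of all genes tested (x axis) for each of the 36 genes with TMM scaling, total counts and limma on log2(TPM + 1). TMM and total counts differ only by a factor per mouse and so give nearly the same values once the median is taken off. With TPM 29 of the 36 stay on the side of 0 that TMM gives.

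Variation between mice of 1 group was not spread evenly. WT mouse 2 was the lowest of the WT mice for 26 of the 36 genes, among them *G6pc*, *Pklr*, *Pcx* and *Ppp1r3g*. Among LKO mice, mouse 3 was highest for 12 genes, including *Pck1*, *G6pc*, *Aldoa* and *Ppp1r3g*, and lowest for 16, including *Slc2a2*, *Gckr*, *Pklr* and *Khk*. How often each mouse was lowest or highest over all genes tested was not counted, so these counts cannot be called particular to the 36 genes. Without LKO mouse 3, 23 of the 36 genes were called, and all 22 calls made with it were kept.

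In 71 further genes of neighbouring pathways, 70 in the table and 63 tested, 5 were called higher (7.94%, against 19.6% of all genes tested) and 27 lower (42.9% against 20.5%), and their median log2 fold change was −0.52. Of 10 tested genes of fructose, galactose and polyol use, 7 fell (70.0%), among them *Tkfc* (triokinase, log2 fold change −2.08), *Glyctk* (glycerate kinase, −1.58) and *Slc2a9* (a urate and hexose transporter, −1.57). In the pentose phosphate pathway 5 of 8 fell (62.5%), with *Pgd* (6-phosphogluconate dehydrogenase) at 21.03 CPM in WT against 5.24 CPM in LKO mice and *Tkt* (transketolase) at a log2 fold change of −1.77, and 1 rose with TMM (*Rpe*, 0.54, but −0.34 with total counts and −0.995 with TPM, and not called without any 1 mouse other than LKO mouse 3, adjusted p = 0.0857 to 0.135). Among 16 tested genes by which substrates enter gluconeogenesis, 6 fell (37.5%) and 4 rose with TMM (25.0%), of which *Sds* and *Mpc2* turned with TPM (−0.31 and −0.60). With total counts neither *Sds* (0.36, adjusted p = 0.230) nor *Mpc2* (0.07, adjusted p = 0.753) was called. *Mpc2* also lost its call with a correction for gene length (0.42, adjusted p = 0.0534). *Got1* (cytosolic aspartate aminotransferase, 2.44) and *Mpc1* (a mitochondrial pyruvate carrier subunit, 2.22) were higher, also with total counts (1.61 and 1.32) and TPM (0.63 and 0.66). The value of *Got1* rests in large part on LKO mouse 3, at 872 CPM against 248 and 255 CPM in the other LKO mice, and was 1.57 without it (adjusted p = 0.000647). In TPM only LKO mouse 3 stood clear of the WT mice. *Got1* was at 87.4, 75.2 and 78.0 TPM in WT mice and at 88.0, 67.7 and 323 TPM in LKO mice. *Gpd2* (−1.92) and *Gpd1* (−1.44), the glycerol-3-phosphate dehydrogenases, and the citrate carrier *Slc25a1* (−1.62) were lower, the call of *Gpd1* being lost without WT mouse 1 or 3 or LKO mouse 2 (adjusted p = 0.0791 to 0.103). Of 18 tested glycogen genes 5 fell (27.8%, near the share of all genes), and of 11 tested isozymes of glycolysis and gluconeogenesis 4 fell (36.4%). For the genes named here other than *Rpe*, *Sds* and *Mpc2*, adjusted p lay between 0.00027 and 0.0301.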

How the data were processed

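Liver RNA of 3 WT and 3 LKO mice was sequenced, 1 library per mouse. The methods describe 0.5 μg of total RNA and a kit with rRNA removal, the labels 1 μg and an mRNA kit. The authors obtained gene abundance with StringTie and deposited whole-number read counts without normalization, FPKM and TPM. The submitters' processing notes list bcl2fastq 2.20.0, FastQC 0.11.7, HISAT2 2.1.0, Bowtie2 2.3.4.1, StringTie 2.1.3b and mm10; the use of strand is not given in the sources used here.

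Genes with more than 1 zero count were excluded, which left 18636 genes holding all but 0.041% of the counts. Counts were scaled by TMM and compared in edgeR 4.0.16 under R 4.3.3 by its quasi-likelihood test (two-sided, genotype as factor, Benjamini-Hochberg adjustment over all genes, threshold 0.05). Alternatives were edgeR's exactTest, DESeq2 1.42.0, other scalings, filters and designs, a lowess correction for gene length (span 0.3, length from counts and deposited FPKM), and limma 3.58.1 on log2(TPM + 1). Procedures were tested on simulated data. Whether same-numbered mice were processed together is not stated, and p-values measure the spread between these mice. Coordinates and promoters are from RefSeq for GRCm38.p6, the assembly of mm10.

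All 36 genes are named. Of the neighbouring genes, the rule took the 12 with the largest change among 17 called at 2-fold or more and a mean of at least 10 CPM, of which 2 are counted but not reported here. *Hk3*, *Rpe*, *Sds*, *Mpc2* and the chromosomal neighbours were chosen after their values were seen. The genes and lists were chosen with earlier results of these data known.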

Additional observations from a re-analysis of the deposited data

How the results depend on the processing

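The direction and call of the 22 called genes held with edgeR's exactTest, DESeq2, DESeq2 size factors, the 3 other filters, protein-coding genes alone and the gene-length correction, which added *Mdh2* (−0.43, adjusted p = 0.0491). Upper-quartile scaling lost *Gckr* (−0.80, adjusted p = 0.0528). *Ppp1r3g* was not tested under the filter of 10 counts in every sample.

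The scaling mattered most. With total counts 3 genes were called higher and 23 lower, and with limma on log2(TPM + 1) 0 and 29. Not called with TMM but called lower with both were *Hk1*, *Hk2*, *Pfkp*, *Pfkfb2*, *Pfkfb3*, *Mdh2*, *Fbp1* and *Gys2*. The sign turned with total counts for *Pfkfb1* (−0.43), *Pfkfb2* (−0.76), *Pgk1* (−0.17), *Ldha* (−0.026), *Pcx* (−0.40), *Pck1* (−0.11) and *Ppp1r3c* (−0.74). With TPM it turned for *Pfkfb1* (−1.10), *Pfkfb2* (−1.22), *Tpi1* (−0.47), *Pgk1* (−0.82), *Ldha* (−0.73), *Pcx* (−1.04), *Pck1* (−0.84), *Pck2* (−0.30), *Slc37a4* (−0.13), *Ugp2* (−0.13) and *Ppp1r3c* (−1.32). Of these, *Pgk1*, *Ldha* and *Pck2* were called higher with TMM and lower with limma on TPM. Both scalings lower the median of all genes, by the amounts given with them above.

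Leaving out 1 mouse at a time gave 16 to 23 called genes, 5 to 7 higher and 11 to 16 lower, and 16 of the 22 kept their call each time. Fold changes that turned were those of *G6pc* (−0.67 to 0.17, above 0 without WT mouse 1 or LKO mouse 2), *Ppp1r3c* (−0.33 to 0.78, below 0 without WT mouse 2 or 3 or LKO mouse 1) and *Ppp1r3g* (−4.22 to 3.51, below 0 without LKO mouse 3 alone). The cause was not tested.

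Same-numbered mice are different animals, and over all genes tested their deviations from the group means did not go together (r = −0.005, −0.039 and −0.049). With 3 mice a group these values cannot show whether same-numbered mice were processed together. With the replicate number as a block, 21 genes were called, 6 higher and 15 lower, *Pgk1* lost its call (0.71, adjusted p = 0.0509), and *G6pc* (0.015) and *Ppp1r3g* (−0.12) turned. With the gene-length correction and the block, 22 were called and the same genes turned (0.073 and −0.043). *G6pc3*, *Pck2*, *Hk1* and *Hk2* had few reads in every mouse, and *Ppp1r3g* had few in every mouse but LKO mouse 3. With 3 mice a group, all errors are limited in precision.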
